A study of Mus musculus and Rattus norvegicus with 53 samples.

Results

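The genes described here are the matrix metalloproteinases (Mmp), the secreted ADAMTS proteases (Adamts) and the tissue inhibitors of metalloproteinases (Timp) of the mouse. They were chosen by symbol from the rows of the mouse count files, as Mmp, Adamts or Timp followed by a number, which gave 46 of 24016 genes: 23 Mmp, 19 Adamts and 4 Timp genes. The study profiled Schwann cells (SCs) of injured and uninjured sciatic nerves by RNA sequencing, to compare differentiated SCs with the progenitor-like SCs of the distal stump and of the nerve bridge, the new tissue that joins the cut ends. All animals were young adult tdTom SC reporter mice of both sexes, in which a Cre transgene specific to the neural crest switches on tdTomato from the Rosa26 locus, and the sequenced cells were those sorted for tdTomato. The Cre labels a part of the SCs, so unlabelled SCs were not sampled. One sciatic nerve was transected, the uninjured nerve of the other side gave the intact SCs (iSCs), the stump below the cut gave the dSCs and the bridge gave the bSCs.

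The first experiment held 12 libraries of 3 pooled nerves each, 4 of iSCs, 4 of dSCs and 4 of bSCs, the injured regions taken 6 days after transection. The second held 35 libraries of 1 nerve each: 5 of iSCs, 18 of dSCs (days 1 and 2, then every other day from 4 to 10, with 3 nerves a day) and 12 of bSCs (the same days from 4 on, 3 nerves a day). In the single-nerve experiment the iSC libraries came from other animals than the injured nerves. Counts assigned to genes ranged from 11435463 to 22617054 in the pooled libraries, with 11735 to 14987 genes detected, and from 9240883 to 22426128 in the single-nerve libraries, with 10042 to 15815 genes detected. The 4 single-nerve libraries with the fewest genes (10042 to 11138, called few-gene libraries here) were iSC replicates 0 and 1, dSC day 1 replicate 1 and dSC day 2 replicate 0. The day 4 dSC and bSC libraries of replicate 1, both from animal 19, were far closer to each other than other pairs of libraries. Their chi-square per degree of freedom was 3.90, against at least 46.2 in other pairs. The calls of late dSCs and late bSCs against iSCs and the counts of animal pairs are given without them too. Other results that use them are given with them only, such as the fit with the animal as a block, the tests over days and the family sums. Levels are given as CPM, the count of a gene relative to the TMM-scaled total of its library. Differences are log2 fold changes ± SE from edgeR's quasi-likelihood test over all genes, called at a Benjamini-Hochberg adjusted p under 0.05. With separate libraries as the replicates, the p-values measure the spread between libraries.

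MMPs and ADAMTS enzymes are zinc-dependent proteases that cut collagens, proteoglycans, growth factors and receptors at the cell surface and in the matrix. Most are made as inactive precursors, and TIMPs block the active enzymes by binding in the catalytic cleft. TIMP-3 stays bound to the matrix and also blocks ADAMTS enzymes, TIMP-2 takes part with MT1-MMP (Mmp14) in the activation of pro-MMP-2, and TIMP-1 is a known early response gene of the injured nerve. In peripheral nerve these proteins are studied for the breakdown of the blood-nerve barrier, of myelin and of inhibitory proteoglycans after injury.

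Of the 46 members, 11 had a count in all 47 libraries, while Mmp1a, Mmp1b and Mmp20 had none in any. Mmp10 had no count in the pooled libraries and counts in 3 single-nerve libraries, and Mmp7 had counts in a single library of all 47. The filter on low counts left 35 members tested in the pooled fit and 41 in the single-nerve fit. Per kb of exon, the highest mean levels in the pooled libraries were those of Mmp2 (260 CPM per kb), Timp2 (183), Mmp14 (176), Timp1 (155) and Timp3 (145), with Mmp19 next at 36.8. In the single-nerve libraries the order was Mmp2 (284 CPM per kb), Timp1 (201), Timp3 (156), Timp2 and Mmp14 (both 132) and Mmp3 (53.9). In the pooled libraries the means of Timp2, Mmp14, Timp1 and Timp3 lay close together and each moved between groups, so their order differed with the group. Mmp2 was also not first in every group.

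Cells other than SCs also make these proteins, and markers of such cells moved with the injury. Summed over 11 macrophage markers, the level was 227 to 5867 CPM in pooled iSCs, 10445 to 17473 in dSCs and 2666 to 8281 in bSCs, and in single nerves 292 to 1321 in iSCs, 2577 to 6360.2 in dSCs of days 1 and 2, 2626 to 13905 in dSCs of days 4 to 10 and 1162 to 14979 in bSCs. Of the 11 macrophage markers, 3 rose in pooled dSCs against iSCs, none was called in pooled bSCs, and 5, 9 and 11 rose in early dSCs, late dSCs and late bSCs of the single nerves. The sum of 8 fibroblast markers was 6300.5 to 34753 CPM in pooled iSCs, 24894 to 34969 in dSCs and 18102 to 32426 in bSCs. None of the 8 was called in pooled dSCs against iSCs. In pooled bSCs 2 were called lower against iSCs and 2 lower against dSCs. The sum of 7 SC markers was 4934 to 11713.5 CPM in pooled iSCs, 1380 to 3272 in dSCs and 1258 to 2608 in bSCs. In single nerves it was 1216 to 4946 CPM in iSCs and 751 to 2211 in early dSCs. The late dSCs held 1079 to 2946 CPM and the late bSCs 167 to 2988 CPM. Against iSCs, 4 of the 7 were called lower and 1 higher in pooled dSCs, and 5 lower and 1 higher in pooled bSCs. Of these markers, Sox10 fell (by 1.46 on the log2 scale in pooled dSCs and by 1.39 in pooled bSCs) and Ngfr rose (2.65 and 1.95). Both had counts in each of the groups. In single nerves the fibroblast sum was 5657 to 17229 CPM in iSCs, 4659 to 25808 in early dSCs, 18765 to 39167 in late dSCs and 13885 to 54376 in late bSCs. Against iSCs, 2 fibroblast markers were called higher and 1 lower in late bSCs, and none in early or late dSCs. Sums of 6 endothelial markers were 111 to 700.1 CPM in the pooled libraries, and those of 6 mural markers 209 to 1475 CPM. In single nerves the endothelial sum was 1339 to 3433 CPM in iSCs, 429.5 to 1041 in early dSCs, 220.2 to 1424 in late dSCs and 216 to 2532 in late bSCs, and the mural sum 810.1 to 4008, 1017 to 4255, 558 to 2465 and 554 to 2162 CPM. Against iSCs, the endothelial marker Cldn5 was called lower in pooled dSCs and in early dSCs, late dSCs and late bSCs of the single nerves, Kdr was called higher in pooled bSCs than in dSCs, and of the mural markers Acta2 was lower in late dSCs and late bSCs and Kcnj8 in late dSCs. Neutrophil markers summed to at most 97.7 CPM in any library, and Ngp and Ltf were at 0 in every library but those of dSCs of days 1 and 2. The neutrophil sum was 5.75 to 8.18 CPM in pooled iSCs, 36.6 to 46.1 in dSCs and 9.33 to 26.9 in bSCs. In single nerves it was 1.94 to 7.89 CPM in iSCs, 14.7 to 97.7 in early dSCs, 6.56 to 69.3 in late dSCs and 1.54 to 58.8 in late bSCs. In each comparison with iSCs 1 neutrophil marker was called higher. The part of these cell types in the results below was not tested. In such sorted bulk samples, fewer cells of a type and less RNA per cell cannot be told apart.

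TIMP genes moved in opposite directions after injury. In the pooled nerves at day 6, Timp3 fell in both injured regions and Timp2 fell in the bridge. In the single nerves, Timp1 was higher than in iSCs in dSCs of days 1 and 2 and in both regions over days 4 to 10, and Timp4 was at or near 0 in the late injured groups. Timp1 lies on chromosome X at 20447292 to 20451861 (mm9, plus strand), inside an intron of Syn1. Timp3 lies on chromosome 10 at 85763117 to 85812251 (plus strand), with exons that overlap Syn3 on the other strand. Timp2 lies on chromosome 11 at 118162383 to 118217054, and Timp4 on chromosome 6 at 115195634 to 115201867 inside an intron of Syn2, both on the minus strand. The libraries do not mark the strand, so reads of the Syn genes on the other strand could be counted here or be lost as ambiguous. Medians per group, with each day as a group, were at most 20.8 CPM for Syn1, 4.84 CPM for Syn2 (dSCs of day 1) and 14.4 CPM for Syn3. Single libraries reached higher levels. The highest Syn2 level, in a bSC library of day 8, lay within the range of Timp4 in late bSCs.

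Timp3, which encodes the matrix-bound inhibitor, made up the largest share of the Timp sum in iSCs. In the pooled iSC libraries it stood at 2107, 3079.9, 1648 and 1300.3 CPM, in the dSC libraries at 543, 937, 993 and 630.2 CPM, and in the bSC libraries at 944, 709, 548 and 727 CPM. Every injured library lay below every iSC library. The fall was -1.39 ± 0.31 on the log2 scale in dSCs (adjusted p = 0.0223) and -1.47 ± 0.31 in bSCs (adjusted p = 0.00700, edgeR). The dSC call was lost when iSC replicate 1 or 2 or dSC replicate 1 or 5 was left out (adjusted p 0.0668 to 0.0852), and the bSC call was kept without any of the libraries.

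In single nerves, Timp3 levels were higher on days 1 and 2 than from day 4 on, though the joint test of equal levels over the 6 dSC days did not call it (adjusted p = 0.224, edgeR). The 5 iSC libraries held 1081, 962, 1028, 2566 and 2821 CPM. The dSCs held 1502 to 2709.7 CPM on days 1 and 2, with a median of 2364, and 651 to 1284 CPM on days 4 to 10, with a median of 857. The bSCs held 641 to 1667 CPM, with a median of 936. The late dSCs differed from iSCs by -0.95 ± 0.26 on the log2 scale (adjusted p = 0.0289), the bSCs by -0.78 ± 0.26 (adjusted p = 0.0562) and the early dSCs by 0.40 ± 0.31 (edgeR; not called). The late dSC call was lost without iSC replicate 4 or 5 (adjusted p 0.142 and 0.173), the libraries with the high values, without 9 of the dSC libraries, without the near-identical pair (adjusted p = 0.0694) and in a fit of the compared groups alone (0.0718). The mural marker sum was also highest in iSC replicates 4 and 5 (2650.0 and 4008 CPM, against 810.1 to 1467 CPM in the other 3) and had a median of 2552 CPM in early dSCs and 704 CPM in late dSCs, and its part in the Timp3 values was not tested.

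Timp2, the inhibitor that also serves pro-MMP-2 activation, was lower in the pooled bridge than in both other regions. It stood at 718, 699, 1155 and 1105 CPM in iSCs, at 862, 744, 814 and 906 CPM in dSCs and at 401, 326, 488 and 330.4 CPM in bSCs. The bSC libraries lay below all others. The difference was -1.25 ± 0.24 on the log2 scale against iSCs (adjusted p = 0.00375) and -1.11 ± 0.24 against dSCs (adjusted p = 0.0201, edgeR), and dSCs differed from iSCs by -0.14 ± 0.24. The call between bSCs and dSCs was lost without bSC replicate 5 or dSC replicate 1 or 5 (adjusted p 0.0517 to 0.0568). In single nerves Timp2 ran from 224 to 795 CPM in iSCs, from 295 to 1069 in late dSCs and from 285 to 861 in bSCs, overlapping throughout, and it was not called in any comparison.

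Timp1 stood at 3.51, 6.97, 69.1 and 119 CPM in the pooled iSC libraries, at 119.9, 117, 139 and 204 CPM in dSCs and at 223, 260.0, 159 and 229 CPM in bSCs. The bSC values were all above the iSC values, while the lowest dSC value lay under the highest iSC value. Neither difference was called: 1.55 ± 0.78 on the log2 scale in dSCs (adjusted p = 0.357) and 2.14 ± 0.79 in bSCs (adjusted p = 0.0874, edgeR). The iSC libraries with the high Timp1, replicates 4 and 5, also had the highest macrophage and fibroblast marker sums of the 4, with 1490 and 5867 CPM of macrophage and 21260 and 34753 CPM of fibroblast markers, against 439 and 227 CPM and 9349 and 6300.5 CPM in replicates 1 and 2. Their endothelial sums were lower (124 and 243 CPM, against 565 and 459 CPM), and the mural sum was highest in replicate 1 (1475 CPM, against 314 to 532 CPM). They were also the higher of the 4 for Mmp2, Mmp3, Mmp14 and Adamts2.

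In single nerves, where iSCs held 16.1 to 35.0 CPM, Timp1 was high in the first days after transection. The day 1 dSC libraries held 190.1, 560.0 and 242 CPM and those of day 2 held 1374, 314 and 448 CPM. All 6 were above all 5 iSC libraries, with a rise of 4.202 ± 0.65 on the log2 scale (adjusted p = 7.4e-04, edgeR), which was kept without any one library. It was the single member of 41 called at these days, where 0.677% of all genes tested were called (0.477% higher, 0.2% lower). DESeq2 called 8 members and 3.69% of all genes at these days. On days 4 to 10 the dSCs held 28.4 to 166 CPM (median 86.9) and the bSCs 25.9 to 320.1 CPM (median 147). These were 1.81 ± 0.54 (adjusted p = 0.0422) and 2.50 ± 0.56 (adjusted p = 0.00598, edgeR) above iSCs on the log2 scale. The late dSC call was lost in 12 of 17 fits that each left out 1 library, any of the 5 iSC libraries included (adjusted p up to 0.0862), without the near-identical pair (0.0662) and without the few-gene libraries (0.0889). The bSC call was lost in none of these.

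Timp4 was a low gene in the pooled nerves. Its pooled iSC libraries held 29.9, 7.07, 2.88 and 0 CPM, and all 8 dSC and bSC libraries were at 0, where 3 counts would be 0.202 to 0.230 CPM in dSCs and 0.135 to 0.258 CPM in bSCs. It did not pass the filter there and has no test. In single nerves the 5 iSC libraries held 0.279, 208, 0.740, 35.3 and 64.8 CPM, the dSCs of days 1 and 2 held 5.64 to 367 CPM (median 54.3), the dSCs of days 4 to 10 held 0 to 7.25 CPM (median 0.740) and the bSCs 0 to 13.8 CPM (median 0.913). The late groups overlapped the low iSC libraries. The fitted differences were -5.00 ± 1.28 in late dSCs (adjusted p = 0.0206) and -4.84 ± 1.28 in bSCs (adjusted p = 0.0162, edgeR). Both calls were lost without iSC replicate 1 (adjusted p = 0.111 and 0.0916) and without the few-gene libraries (0.106 and 0.0823), the bSC call also in a fit of the compared groups alone (0.0509), and the 3 highest values of the whole time course, 208, 299 and 367 CPM, were in libraries with few genes detected.

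**Figure D1:**
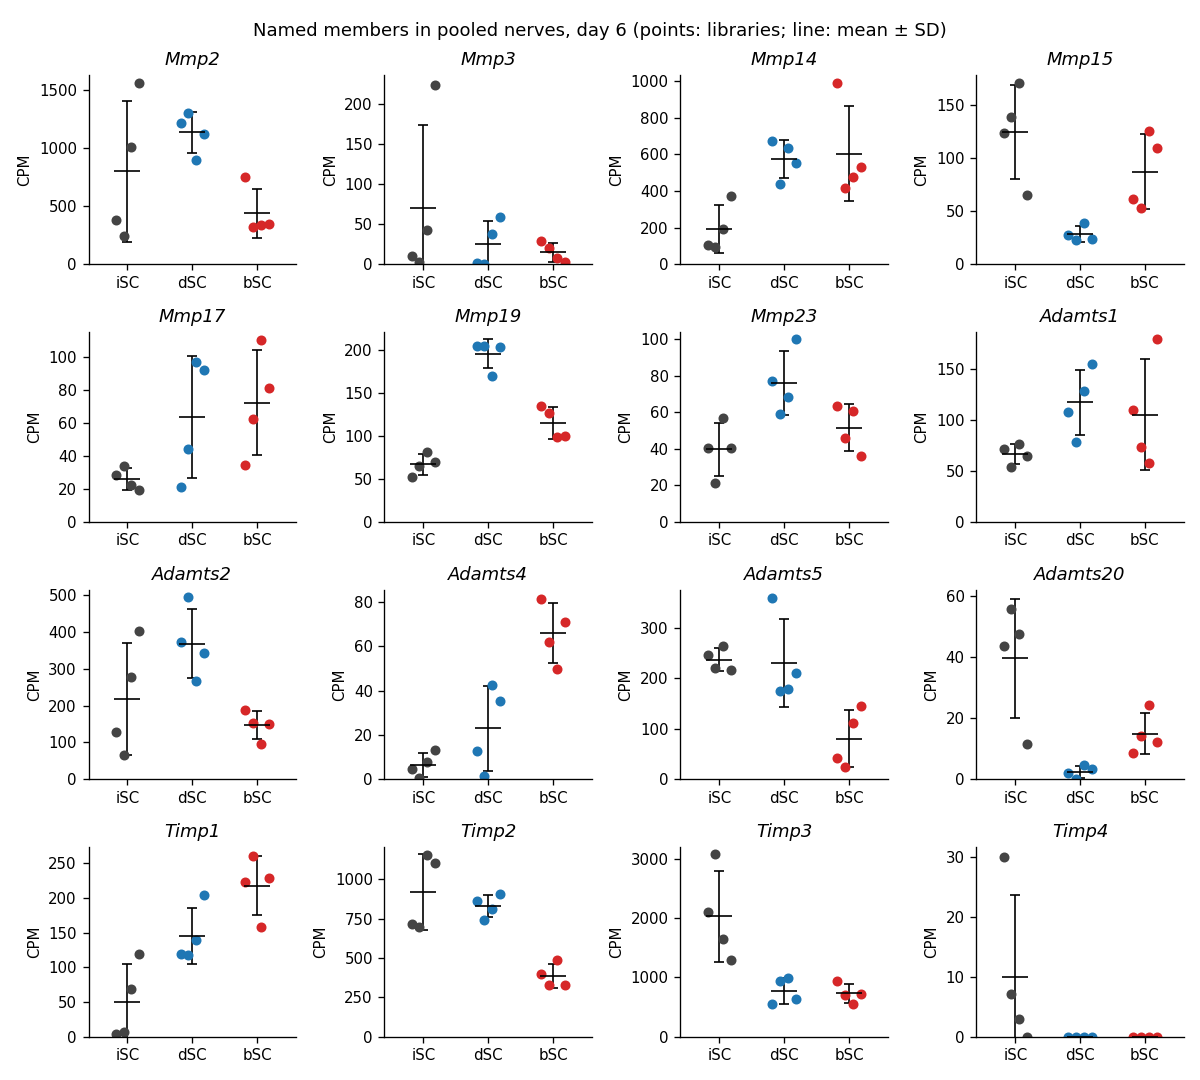
CPM of the named members (vertical axes, from 0, CPM) in pooled iSCs, dSCs and bSCs at day 6; points are the 4 libraries of a group and lines the mean ± SD. Timp3 was lower in every dSC and bSC library than in any iSC library, Timp2 in every bSC library, and Mmp14 and Mmp19 were higher in every injured library.

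Among the proteases, Mmp14 and Mmp19 rose in both injured regions of the pooled nerves, Mmp15 and Adamts20 fell in the distal stump, and Adamts4 rose and Adamts5 fell in the bridge. In dSCs against iSCs, 5 of 35 members tested were called (Mmp14 and Mmp19 higher, Mmp15, Adamts20 and Timp3 lower), where 5.32% of all genes tested were called (2.63% higher, 2.69% lower). In bSCs against iSCs the number was 6 of 35, 3 in each direction, where 14.7% of all genes were called (7.24% higher, 7.46% lower), so 6 of 35 is near the share among all genes. Between bSCs and dSCs 2 of 35 were called (Mmp15 higher, Timp2 lower), against 5.43% of all genes (2.31% higher, 3.11% lower). The iSC libraries are shared by both comparisons with intact nerve. The median log2 fold change of the members tested was 0.75 in dSCs and 0.22 in bSCs against iSCs, where the medians of all genes tested were -0.02 and -0.16. The labels give pools of the same number the same animal number. With that number as a block the calls fell to Mmp15 and Mmp19 in dSCs and to Timp2 and Timp3 in bSCs. None was left between bSCs and dSCs. The share of all genes called in this blocked fit is not given here.

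Mmp14, which encodes the membrane-bound MT1-MMP, an activator of pro-MMP-2 and a collagenase at the cell surface, lies on chromosome 14 at 55050441 to 55060095 (mm9). Its pooled iSC libraries held 104, 93.5, 189.9 and 375 CPM, the dSC libraries 675, 437, 634 and 551 CPM and the bSC libraries 987, 418, 477 and 529.8 CPM. No injured library overlapped the iSC range. It rose by 1.59 ± 0.43 on the log2 scale in dSCs (adjusted p = 0.0464) and by 1.66 ± 0.43 in bSCs (adjusted p = 0.0193, edgeR). Leaving out any library other than iSC replicate 5 lost the dSC call (adjusted p 0.0706 to 0.133), and leaving out iSC replicate 1 or 4 lost the bSC call (0.0554 and 0.0509).

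In single nerves Mmp14 held 6.70, 8.07, 195, 163 and 119 CPM in iSCs, the low values being those of replicates 0 and 1 with few genes detected. The early dSCs held 34.5 to 217 CPM, the late dSCs 199 to 550.3 CPM (median 399) and the bSCs 239 to 729 CPM (median 464). All 24 late libraries lay above the 5 iSC libraries, by 2.08 ± 0.55 in dSCs (adjusted p = 0.0233) and 2.28 ± 0.55 in bSCs (adjusted p = 0.01001, edgeR). Neither call was lost without any one library, without the few-gene libraries or without the near-identical pair, and both were lost in a fit of the compared groups alone (adjusted p = 0.0605 and 0.0611).

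Mmp19, a secreted MMP of chromosome 10 (128228009 to 128237880; its exons overlap 1110012D08Rik on the other strand), held 51.8, 64.9, 81.0 and 69.3 CPM in pooled iSCs, 204, 204, 169.7 and 204 CPM in dSCs and 134, 127, 98.3 and 99.6 CPM in bSCs. The 3 groups did not overlap, with bSCs in between. The rise was 1.55 ± 0.22 on the log2 scale in dSCs (adjusted p = 0.00162) and 0.78 ± 0.21 in bSCs (adjusted p = 0.0270). The difference between bSCs and dSCs was -0.77 ± 0.21 and missed the threshold (adjusted p = 0.0540, edgeR). The dSC call was kept without any one library, and the bSC call was lost without iSC replicate 1 or 2 or bSC replicate 1 or 2 (adjusted p 0.0576 to 0.0824). Single-nerve iSCs held 64.3 to 109 CPM and all 12 late dSC libraries lay above them, at 115 to 323 CPM (1.17 ± 0.28, adjusted p = 0.0143, edgeR). The late bSCs overlapped the iSCs, at 50.5 to 200 CPM (median 125), and Mmp19 was not called in them. Of the 12 late bSC libraries, 10 lay above the iSC range and 1 below it, and those of day 10 held 50.5 to 114 CPM.

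Mmp15 encodes another membrane-type MMP (MT2-MMP), lies on chromosome 8 at 97876168 to 97898193, and went the other way. Its levels were 124, 138, 171 and 65.7 CPM in pooled iSCs, 27.5, 22.9, 39.1 and 23.9 CPM in dSCs and 61.3, 53.2, 125 and 109 CPM in bSCs. The dSC libraries lay below all others and the bSC range reached into the iSC range. The differences were -2.14 ± 0.37 on the log2 scale between dSCs and iSCs (adjusted p = 0.00524) and 1.62 ± 0.37 between bSCs and dSCs (adjusted p = 0.0239, edgeR). The first was kept without any one library, the second was lost without bSC replicate 3 or 5 or dSC replicate 1, 2 or 5 (adjusted p 0.0565 to 0.0732). Single-nerve iSCs held 19.7 to 58.1 CPM of Mmp15 and dSCs of day 6, the day of the pooled samples, held 41.5, 16.1 and 103 CPM, which spans the iSC range, and Mmp15 was not called in any single-nerve comparison.

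The aggrecanases, which cut the proteoglycans that the lectican genes encode, split. Adamts4 (chromosome 1, 173180552 to 173190768) held 4.52, 0.509, 7.57 and 13.3 CPM in pooled iSCs, 12.9, 1.21, 42.3 and 35.4 CPM in dSCs and 81.5, 61.9, 49.8 and 71.1 CPM in bSCs. The bSC libraries lay above all others, by 3.35 ± 0.97 on the log2 scale against iSCs (adjusted p = 0.0339), and dSCs differed from iSCs by 1.83 ± 0.92 (adjusted p = 0.357, edgeR). The bSC call was lost in 6 of 8 fits that left out 1 library, all but those without bSC replicate 3 or iSC replicate 5 (adjusted p 0.0530 to 0.0875). Single-nerve Adamts4 held 0, 0, 14.7, 5.75 and 1.02 CPM in iSCs, 20.3 to 49.4 CPM in the 6 early dSC libraries, 4.66 to 68.4 CPM in late dSCs and 6.77 to 84.9 CPM in bSCs. The late differences were 2.97 ± 0.82 (adjusted p = 0.0309) and 3.35 ± 0.84 (adjusted p = 0.0122, edgeR). The early one, 2.95 ± 0.86, was not called (adjusted p = 0.130), though its groups did not overlap. The late dSC call was lost in 9 of 17 fits without 1 library and without the few-gene libraries (adjusted p 0.0506 to 0.0691), and the bSC call in none of these. Both were lost in a fit of the compared groups alone (adjusted p = 0.103 and 0.0853).

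Adamts5 (chromosome 16, 85858415 to 85901370), the other main aggrecanase of cartilage, held 247, 221, 264 and 217 CPM in pooled iSCs, 359, 175, 178 and 211 CPM in dSCs and 42.9, 24.6, 111 and 144 CPM in bSCs. The bSC libraries were the 4 lowest. The difference was -1.56 ± 0.46 on the log2 scale against iSCs (adjusted p = 0.0365) and -1.52 ± 0.46 against dSCs, which missed the threshold (adjusted p = 0.0704, edgeR). The call against iSCs was lost without iSC replicate 1, 2 or 4 or bSC replicate 1 or 2 (adjusted p 0.0508 to 0.0785). In the single nerves the groups overlapped. The iSCs held 13.1 to 170 CPM (median 63.7) and late bSCs 35.7 to 374 CPM (median 87.9), with a difference of 0.33 ± 0.40 that was not called (adjusted p = 0.699, edgeR), and the late dSCs held 66.3 to 203 CPM (0.80 ± 0.41, adjusted p = 0.273, edgeR). Adamts20 (chromosome 15, 94100594 to 94295849), which cuts the lectican versican, stood at 43.5, 55.9, 47.6 and 11.4 CPM in iSCs, at 1.91, 0, 4.51 and 3.43 CPM in dSCs and at 8.70, 14.1, 24.3 and 12.1 CPM in bSCs. It fell in dSCs by 4.00 ± 1.07 on the log2 scale (adjusted p = 0.0455, edgeR), with 1 dSC library at 0. That call was lost without any library other than iSC replicate 5 or dSC replicate 2 (adjusted p 0.0663 to 0.130). In single nerves Adamts20 held 3.16 to 59.3 CPM in iSCs, 0 to 14.2 CPM in late dSCs and 0 to 106 CPM in late bSCs. These ranges overlapped, and Adamts20 was not called there.

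**Figure D2:**
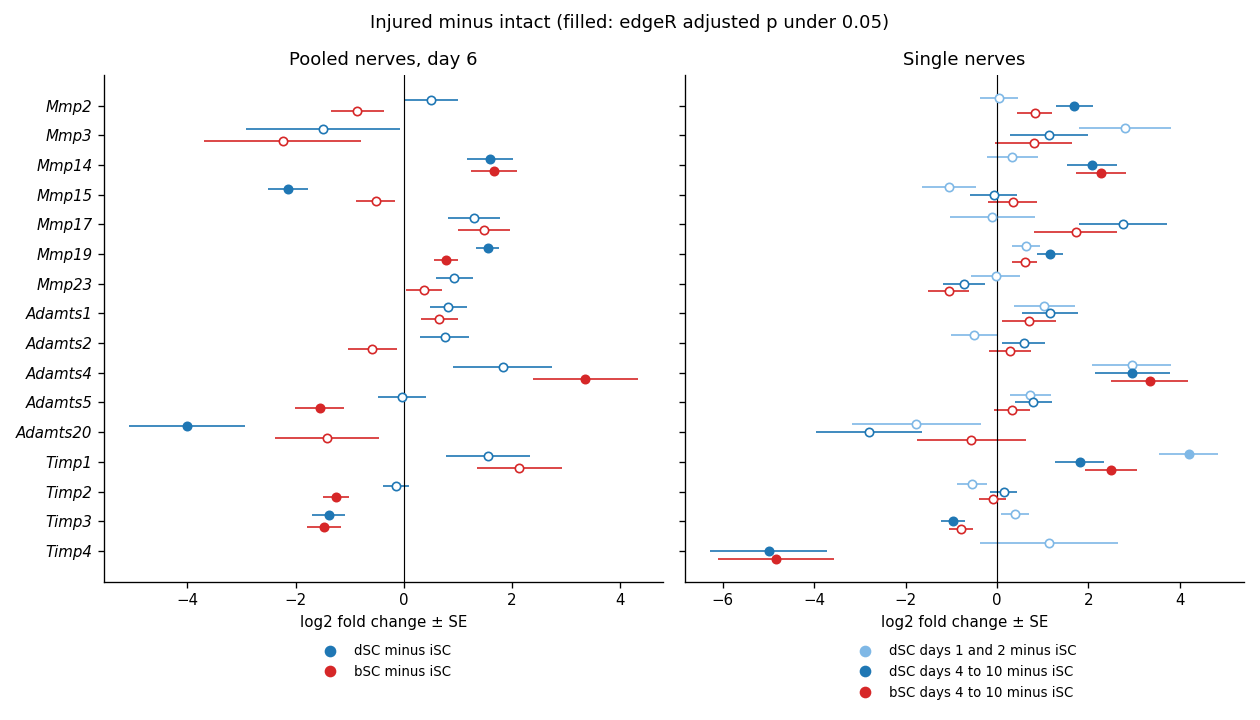
Log2 fold change ± SE (horizontal axis) of the named members against iSCs in pooled nerves at day 6 and in single nerves; filled points have an edgeR adjusted p under 0.05. Mmp14 and Mmp19 lie to the right of 0 and Timp3 to the left in both injured regions of the pooled nerves, and Timp2 lies left of 0 in the pooled bridge.

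Mmp2, gelatinase A, on chromosome 8 at 95351227 to 95377316, had the highest mean level per kb of the members over all libraries of each experiment. It was not first in every group. In pooled bSCs it stood at 145 CPM per kb, below Timp1 (245) and Mmp14 (232). Its pooled levels were 381, 242, 1009.7 and 1560.4 CPM in iSCs, 1219, 1304, 894 and 1124 CPM in dSCs and 753, 323, 338 and 343 CPM in bSCs. The bSC libraries lay below the dSC libraries, but the difference of -1.37 ± 0.50 on the log2 scale was not called (adjusted p = 0.120, edgeR), nor was either comparison with iSCs. In single nerves, iSCs held 120.4, 206, 534, 428 and 682 CPM, early dSCs 111 to 914 CPM, late dSCs 633 to 3000.5 CPM (median 1283) and bSCs 165 to 1871 CPM (median 746). The late dSCs were 1.70 ± 0.40 above iSCs on the log2 scale (adjusted p = 0.0127, edgeR), a call kept without any one library, with 2 dSC libraries inside the iSC range. The 3 bSC libraries of day 10 held 165, 336 and 295 CPM, below each bSC library of days 4 to 8 (574 to 1871 CPM).

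The gelatinase Mmp9, which is given after its values were seen, stayed low, with a median of 19.9 CPM in pooled dSCs, 16.1 in bSCs and 3.87 in iSCs. Adamts2, the procollagen N-proteinase, held 127, 66.1, 279 and 403 CPM in pooled iSCs, 372, 494, 266 and 343 CPM in dSCs and 189, 152, 95.3 and 149 CPM in bSCs. The bSC libraries lay below the dSC libraries without a call (-1.33 ± 0.45, adjusted p = 0.0998, edgeR). Adamts1 held 54.1 to 76.1 CPM in iSCs and 79.0 to 155 CPM in dSCs, Mmp23 21.1 to 56.6 CPM and 58.8 to 99.8 CPM, and Mmp17, which encodes the GPI-anchored MT4-MMP, 18.95 to 33.5 CPM and 21.04 to 97.1 CPM. None of these 3 was called by edgeR in any comparison of all libraries. Mmp17 held 0 to 38.4 CPM in single-nerve iSCs and 28.8 to 156 CPM in late dSCs (2.76 ± 0.96, adjusted p = 0.0829, edgeR). Without the 4 few-gene libraries Mmp17 was called in late dSCs (3.33) and in late bSCs (2.28). The 30 members not named by the rule ran lower, and of these Adamts15 had the highest group median, 69.0 CPM.

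In single nerves, 7 of 41 members were called in dSCs of days 4 to 10 against iSCs, where 5.32% of all genes tested were called (1.84% higher, 3.49% lower): Mmp2, Mmp14, Mmp19, Adamts4 and Timp1 higher, Timp3 and Timp4 lower. In bSCs the number was 4 of 41 (Mmp14, Adamts4 and Timp1 higher, Timp4 lower), against 9.34% of all genes (2.58% higher, 6.75% lower). Both use the same 5 iSC libraries. Without the near-identical day 4 pair, Mmp2, Mmp14, Mmp19, Adamts4 and Timp4 were called in dSCs and the same 4 members in bSCs. Between bSCs and dSCs of the same days no member was called, where 0.103% of all genes were, all of them lower. Of the 41 members, 3 had an unadjusted p under 0.05 (Mmp2 and Mmp19 lower, Adamts20 higher in bSCs), and DESeq2, which called 3.78% of all genes, called 4, all lower in bSCs (Mmp2, Mmp19, Mmp27 and Adamts18; Mmp27 and Adamts18 are named after their values were seen). Without the 4 few-gene libraries edgeR called Mmp2 (-0.89).

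The labels give the animal of each nerve, so that bridge and distal stump can be set against each other within animals. In 10 such pairs, Mmp2 was lower in the bridge in 9, by a mean of 0.62 ± 0.68 (SD) of log2(CPM + 0.5), and without animal 19 in 8 of 9. With the animal as a block, Mmp2 was the 1 member called (-0.91 ± 0.18, adjusted p = 0.0255, edgeR), against -0.87 ± 0.28 (adjusted p = 0.220) without it. The blocked fit kept animal 19 and was not run without that animal. The share of all genes called in the blocked fit is not given here. Mmp17 and Mmp19 were each lower in the bridge in 8 of 10 pairs and Mmp14 and Adamts20 higher in 8 of 10, none of them called. Without animal 19 the counts were 8 of 9 pairs for Mmp17 and Mmp19 and 7 of 9 for Mmp14 and Adamts20.

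**Figure D3:**
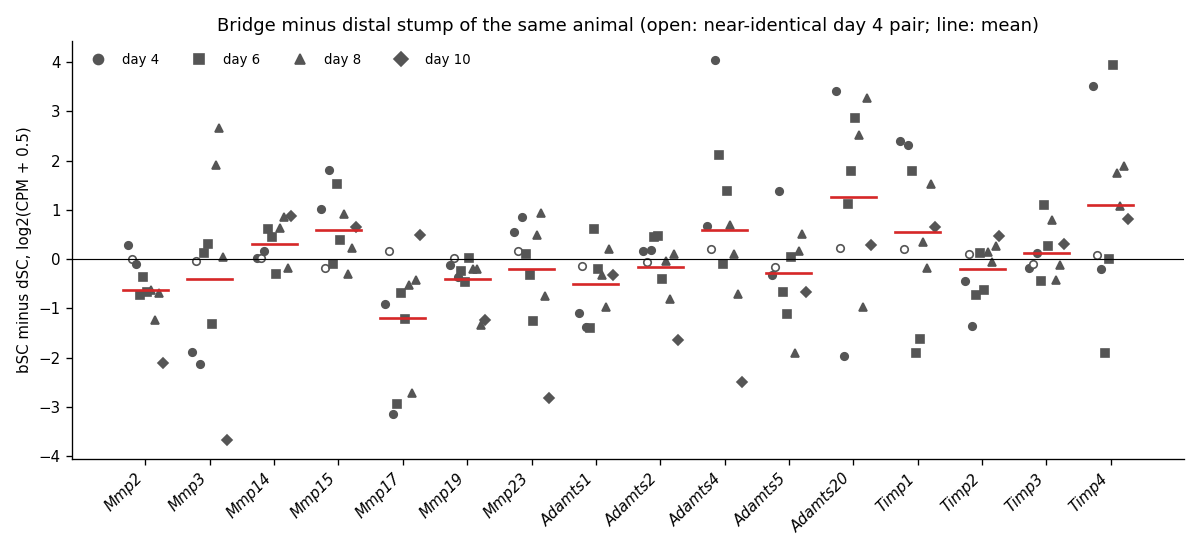
Bridge minus distal difference of log2(CPM + 0.5) (vertical axis) for each named member in the 10 animals with both regions; each point is an animal, its shape gives the day, open circles mark the near-identical day 4 pair and red lines the mean. Mmp2 lies below 0 in 9 of 10 animals.

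Over the 6 days of distal stump samples, mean levels of Timp1 and Mmp3 were highest in the first days and those of Mmp2 and Mmp14 from day 4 on. Mmp3 encodes stromelysin-1, which cuts many matrix proteins and activates other pro-MMPs. It held 557, 415 and 253 CPM on day 1, 205, 56.6 and 81.7 CPM on day 2 and 20.3 to 156 CPM on days 4 to 10, where iSCs held 0.140 to 72.7 CPM. All 3 day 1 libraries lay above every other dSC library. The mean of both early days differed from iSCs by 2.81 ± 1.00 on the log2 scale and was not called (adjusted p = 0.266, edgeR). The joint test of equal levels over the 6 dSC days called no member, where 0.0644% of all genes tested were called. In that test 5 members had an unadjusted p under 0.05, Timp1 at 1.68e-04, Timp3 at 4.01e-04, Mmp2 at 0.00103, Timp4 at 0.00351 and Mmp14 at 0.0479, and their adjusted p ran from 0.119 to 0.721 (edgeR). DESeq2 called 3 members in it, Timp1, Timp3 and Mmp2, and 1.32% of all genes. A test of whether the bSC minus dSC difference changes over days 4 to 10 called no member and 0% of all genes by edgeR, and no member and 0.0387% of all genes by DESeq2, with 4 members at an unadjusted p under 0.05 (Mmp13, Mmp27, Adamts6 and Adamts19, named here after their values were seen).

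**Figure D4:**
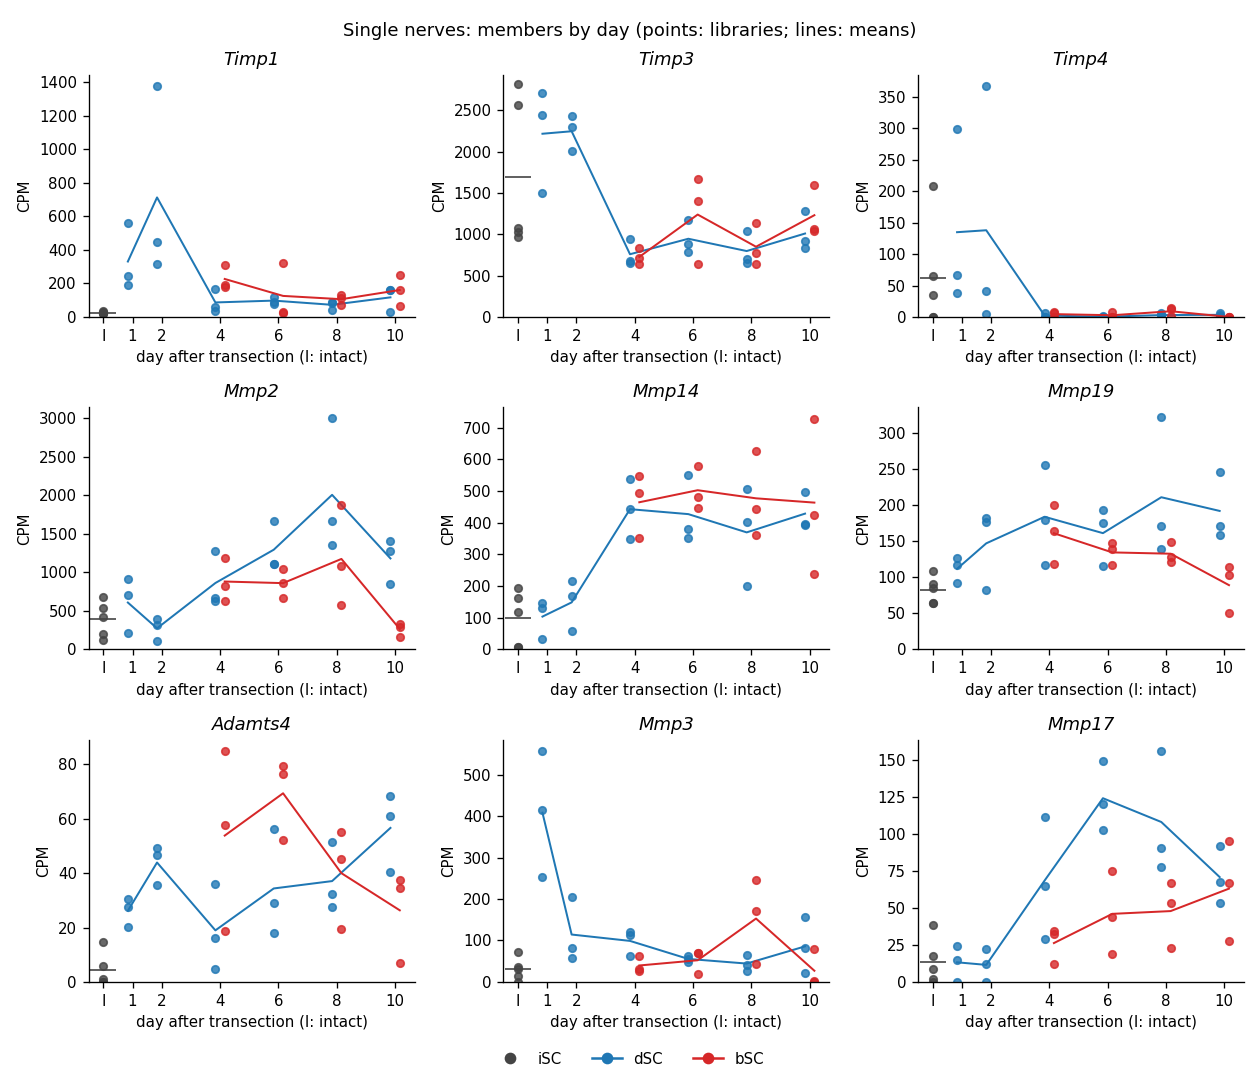
CPM of 9 named members (vertical axes, from 0) against day after transection in single nerves, with iSCs at the left (I); points are libraries and lines join group means of dSCs and bSCs, with a bar at the iSC mean. The mean of Timp1 was highest on day 2 and that of Mmp3 on day 1, and all dSC and bSC libraries from day 4 on held more Mmp14 than any iSC library.

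Summed by family, CPM is read here as a description, with no test. The 23 Mmp genes summed to 814 ± 260 CPM in single-nerve iSCs (SD, n = 5), to 2279 ± 683 CPM in late dSCs (n = 12) and to 1734 ± 534 CPM in late bSCs (n = 12). The 4 Timp genes summed to 2306 ± 1122 CPM in iSCs, 3264 ± 437 CPM in early dSCs (n = 6), 1573 ± 182 CPM in late dSCs and 1670 ± 385 CPM in late bSCs. The ratio of the Timp sum to the Mmp sum was 2.97, 2.44, 1.56, 3.87 and 3.34 in the iSC libraries, and 0.331 to 1.08 in the 12 late dSC libraries. It was 1.72, 2.56 and 2.45 on day 1, 5.39, 3.23 and 3.11 on day 2, 0.568 to 1.32 in bSCs of days 4 to 8 and 1.70, 1.63 and 1.69 in bSCs of day 10. Every iSC library was thus above every late dSC library.

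In the pooled experiment the same ratio was 3.59, 5.80, 1.77 and 1.03 in iSCs, 0.648 to 0.874 in dSCs and 0.737 to 1.16 in bSCs, where iSC replicate 5 lay within the bSC range. Timp3 made up 65.9% ± 13.8 (SD, n = 4) of the Timp sum in pooled iSCs and 43.7% ± 9.05 in dSCs. Mmp14 made up 13.6% ± 1.54 of the Mmp sum in iSCs, 25.5% ± 3.93 in dSCs and 41.0% ± 4.04 in bSCs, the 3 ranges not overlapping. In single nerves these ranges did overlap. The Mmp14 share there was 1.21 to 19.9% in iSCs, 9.85 to 35.1% in late dSCs and 16.5 to 51.3% in late bSCs. A ratio of sums over CPM weights long genes more. With each gene per kb, the ratio in single nerves was 0.795 to 1.92 in iSCs, 0.214 to 0.895 in late dSCs and 0.463 to 1.32 in late bSCs, so that on this scale the iSC and late dSC ranges overlapped. In pooled nerves it was 0.664 to 2.86 in iSCs, 0.525 to 0.696 in dSCs and 0.622 to 1.22 in bSCs. There the iSC range overlapped both others.

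**Figure D5:**
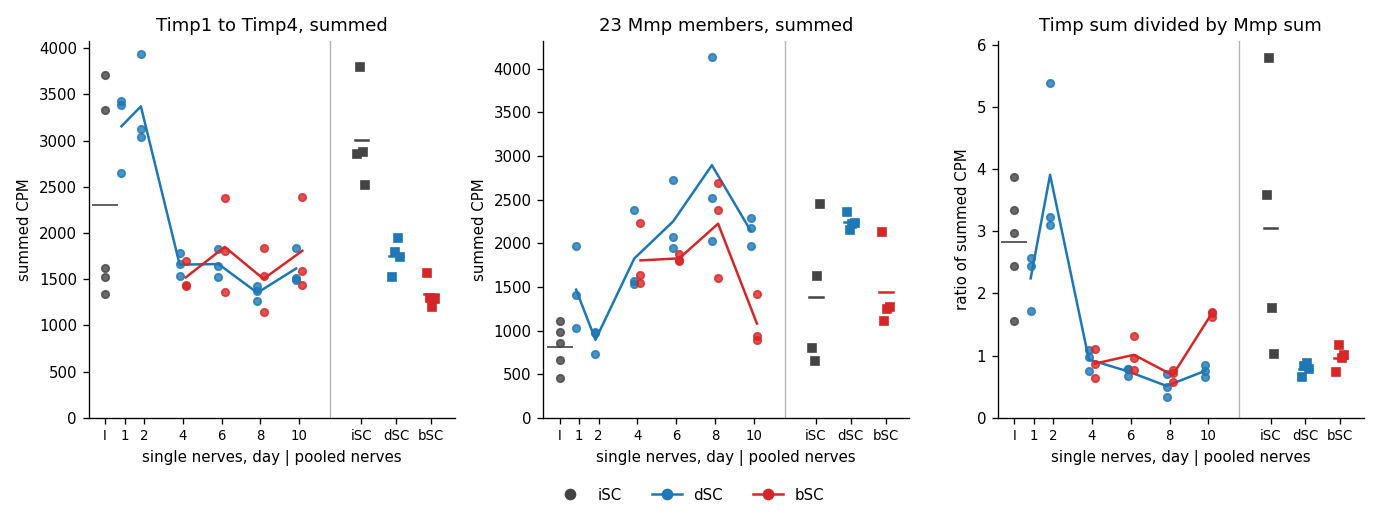
Summed CPM of the Timp and of the Mmp genes and the ratio of the Timp to the Mmp sum (vertical axes), by day in single nerves (left of the line in each panel, I for iSCs) and in the pooled groups (right); points are libraries, lines and bars are means. In single nerves the ratio was 1.56 to 3.87 in iSCs and 0.331 to 1.08 in dSCs of days 4 to 10.

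A cluster of 10 Mmp genes on chromosome 9 (7272514 to 7699585, mm9; 427 kb) held most of the silent members. Of these, 5 had a count in some pooled library and 7 in some single-nerve library, and Mmp3 was the one with levels high enough to be named. Mmp8, Mmp12 and Mmp13, the neutrophil collagenase, the macrophage elastase and collagenase-3, are given after their values were seen. All 3 were at 0 in the 5 single-nerve iSC libraries. In the dSCs of days 1 and 2 they held 0 to 23.2 CPM (median 10.0), 0 to 30.6 CPM (median 15.1) and 0 to 7.17 CPM (median 0.0448). Mmp12, whose exons overlap those of Mmp1b on the other strand, reached 200.4 CPM in 1 pooled dSC library and was at 0 in the other 3.

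The promoters of 8 of the 10 genes of this cluster hold TGANTCA, a loose form of the AP-1 motif that reads the same on both strands. Those of Mmp8 and Mmp27 lack it. Mmp20 holds it as TGAATCA, and the others as TGAGTCA or TGACTCA. Of the 8 promoters, 4 are shown to set the motif beside levels that differed. The window is the 250 bases before the start of each RefSeq gene (GRCm38.p6), in which 32 of the 46 members, with 35 promoters, could be matched. The motif, in capitals, was found in 8 of the 35 (22.9%) and in 2217 of 32851 promoters of the table (6.75%), and all 8 belong to the cluster.
Mmp3 (chr9:7445765-7445793, plus strand, motif 46 to 40 bases before the start): ggaagcaattaTGAGTCAgttttcgggtg
Mmp13 (chr9:7272468-7272496, plus strand, 35 to 29 bases before): ccccaaagtggTGACTCAtcactatcatg
Mmp12 (chr9:7347319-7347347, plus strand, 44 to 38 bases before): gacatcaacagTGAGTCAgatagaggatt
Mmp10 (chr9:7502268-7502296, plus strand, 63 to 57 bases before): tagcacccatgTGAGTCAtgcttagtgac
Mmp3 and Mmp10 carry the motif in the same letters, and Mmp3 held counts in most libraries while Mmp10 held counts in 3 of 47. The match is a description of letters in a window, and it does not show that a factor binds there.

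Genes that act with the proteases were read from a list of 35. In pooled dSCs 7 of 31 tested were called against iSCs (5.32% of all genes), 6 of them higher: the proprotein convertase Furin, which activates membrane-type MMPs (1.69 ± 0.31), the urokinase receptor Plaur (2.72 ± 0.55), Serpine2 (0.98 ± 0.26), the hyaluronan receptor Cd44 (2.03 ± 0.31), Adam12 (3.10 ± 0.82) and the lectican Vcan (2.22 ± 0.57). Adam10, a sheddase, was lower (-1.47 ± 0.27). In bSCs 14 of 31 were called (14.7% of all genes), 5 higher, which were Furin (2.34 ± 0.31), Plaur (3.12 ± 0.56), Serpine2 (1.17 ± 0.26), Cd44 (3.22 ± 0.33) and Adam12 (4.71 ± 0.88). The 9 lower genes in bSCs held 6 of the 10 tested inhibitors and ADAMTS-like genes, among them Reck, a membrane inhibitor of MMPs (-2.45 ± 0.66). Between bSCs and dSCs 7 of 31 were called (5.43% of all genes), Cd44 higher (1.18 ± 0.30) and 6 lower. In single nerves 2 of 35 were called in early dSCs (1 higher, 1 lower), 7 in late dSCs (5 higher, 2 lower) and 12 in late bSCs (5 higher, 7 lower). The shares of all genes called there were 0.677%, 5.32% and 9.34%. Cd44 was higher in each (2.49 ± 0.35, 1.99 ± 0.32 and 2.44 ± 0.33). Between late bSCs and dSCs 1 was called, lower in bSCs, where 0.103% of all genes were called.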

How the data were processed

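The authors aligned the reads to the mouse genome (mm9, NCBI Build 37) with TopHat2 2.0.11 and assigned them to genes with HTSeq. The deposited files hold these raw counts, 1 file per lane, with 92 ERCC spike-ins and 5 summary lines that were left out here. The strand setting of the counting was not given in the sources used here, and Smart-seq2 libraries do not mark the strand. Lanes of a library were summed. Counts were fitted with edgeR 4.0.16 (R 4.3.3, TMM, low-count filter by group, quasi-likelihood test) in 1 fit of the 12 pooled libraries (13751 genes tested) and 1 fit of the 35 single-nerve libraries (15519 genes), with Benjamini-Hochberg adjustment over all genes tested, and again with DESeq2 1.42.0. The fits were tested on simulated data first. With 4-fold changes, 24.2% of changed genes were recovered for pooled dSCs, 15.5% for early dSCs and 20.4% for late dSCs against iSCs. With 16-fold changes the shares were 56.1%, 38.8% and 61.2%. Few genes were changed in the simulation, 99 by 4-fold and 98 by 16-fold among 13286 for pooled dSCs, where 5.32% were called in the data. The Benjamini-Hochberg threshold depends on the share of changed genes, so these recovered shares hold for that setting alone. No comparison with bSCs was simulated. Named are the Timp genes, members called in a comparison and the 12 members of highest mean CPM in either experiment. The members, lists and comparisons were chosen with earlier results of these data known.

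Exon lengths and positions come from GENCODE vM1 (mm9) and promoters from RefSeq (GRCm38.p6). A bSC library of day 10 (replicate 0), whose title carries another number than its animal, stayed out of the animal pairs. The pairing comes from the animal numbers in the labels. Deviations from the group means correlated at a mean of 0.158 between dSC and bSC libraries of the same animal (10 pairs, 4 over 0.1; 0.0566 without the near-identical day 4 pair, 9 pairs, 1 over 0.1), against -0.00654 between other pairs, and at -0.0143 between pools of the same number (10 pairs, 0 over 0.1). Rat libraries were not used here.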

Additional observations from a re-analysis of the deposited data

Results flagged for a closer look

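A search of 62 groups of 4 or 5 libraries for a single library far from the rest of its group, a rule that chance meets in about 1 of 20 groups, marked 3 values. Mmp19 stood at 169.7 CPM in pooled dSC replicate 3, where the other 3 dSC libraries were all at 204 CPM. That dSC library still lay above every iSC and bSC library. Mmp2 stood at 753 CPM in pooled bSC replicate 1, where the other 3 bSC libraries held 323 to 343 CPM, and it lay below the lowest dSC library all the same. Mmp23 stood at 251 CPM in single-nerve iSC replicate 1, where the other 4 iSC libraries held 45.2 to 66.5 CPM. That iSC library had the fewest genes detected (10042) of the single-nerve libraries, and the part of this in the Mmp23 value was not tested.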

How the results depend on the processing

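Of 462 values of named and called members under other settings or without 1 library, 0 changed direction, 359 kept their call and 103 missed the threshold. Calls kept under every setting and without any one library were Mmp15 and Mmp19 in pooled dSCs, Timp2 and Timp3 in pooled bSCs, Timp1 in early dSCs, Mmp2 and Mmp19 in late dSCs and Timp1 in late bSCs. DESeq2 called 10 members (main count 6; 22.9% of all genes) in pooled bSCs against iSCs, 10 (2; 14.2%) between pooled bSCs and dSCs, 8 (1; 3.69%) in early dSCs, 12 (7; 10.6%) in late dSCs, 9 (4; 13.7%) in late bSCs, 4 (0; 3.78%) between late bSCs and dSCs and 3 (0; 1.32%) over days. Blocked on the pool number (replicate block), 2 members were called in pooled dSCs, 2 in bSCs and 0 between them, and with the animal as a block 1 was called between late bSCs and dSCs (0 over days in the interaction). With a fit of the compared groups alone the counts were 3 in pooled dSCs, 4 between pooled bSCs and dSCs and 1 in late bSCs, and without the few-gene libraries 1 between late bSCs and dSCs. Leaving out 1 library at a time gave 2 to 6 members in pooled dSCs, 2 to 8 in pooled bSCs, 0 to 2 between them, 1 to 2 in early dSCs, 4 to 7 in late dSCs and 4 to 5 in late bSCs. For the fits other than DESeq2, the share of all genes called in the same fit is not given here. Those counts therefore cannot be set against all genes. The causes of these changes were not tested. Settings added after seeing the data were the fits without the near-identical pair, without the few-gene libraries and with a term for the number of lanes. With 3 to 5 libraries in most groups, members whose spread within iSCs is wide (Mmp2, Mmp3, Timp1 and Timp4) have large standard errors. A missed call, there or in any other member, does not show equal levels.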
